A study of Arabidopsis thaliana with 12 samples.

Results

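The response of wild-type Arabidopsis thaliana roots to trans-zeatin, a natural cytokinin, was read from 6 of the 12 Affymetrix ATH1 arrays in the series, chosen by array title and treatment label. Of these, 3 arrays carried RNA of wild-type roots given trans-zeatin, and 3 carried RNA of wild-type roots given DMSO, the solvent. Both groups were accession Col-0 (stock N1092) and were described as roots of seedlings that had stood for 2 weeks on vertical agar plates with Murashige and Skoog salts. The other 6 arrays held roots of the arr10 arr12 double mutant, combined from the lines SALK_098604 and SALK_054752, with 3 arrays under trans-zeatin and 3 under DMSO. They were used for the common estimate of the spread between arrays and for the test of the difference between genotypes. The treated wild-type arrays are titled CK and carry the treatment label trans-zeatin. No source used here gives the dose or the duration of the treatment. The extraction protocol speaks of harvested seedlings where the tissue label says roots. Nothing in the labels tells whether the arrays of a group stand for separate sets of plants, and the p-values therefore measure only the spread between arrays, which may be technical.

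Cytokinins are adenine-derived hormones that bind histidine kinase receptors. The signal passes through phosphotransfer proteins to the type-B response regulators, which are transcription factors, and these switch on the genes of the type-A response regulators, which damp the relay. In roots cytokinin is known for moving cells out of the dividing zone into differentiation, for holding back lateral root initiation and for acting against auxin.

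Values are array signals on a linear scale as the authors deposited them. A change is the difference of log2(signal + 6.65), trans-zeatin minus DMSO, so a change of 1 is a doubling for bright probe sets and understates the change of dim ones. Of 22746 probe sets, 13647 had a mean signal above 23.5 over the 12 arrays and were tested with limma. At an adjusted p under 0.05, 516 rose (3.78% of those tested) and 663 fell (4.86%), together 8.64%. The median change was 0.53 among the risers, -0.56 among the fallers and 0.02 over all probe sets tested. A change of at least 2-fold was seen in 59 of the risers and 53 of the fallers, and 41.1% of all calls were smaller than 0.5. The smallest change called was 0.26, against a median standard error of 0.12. The 3 trans-zeatin arrays lay wholly above the 3 DMSO arrays in 510 of the 516 risers and wholly below them in 655 of the 663 fallers. Over all probe sets tested, the trans-zeatin arrays lay wholly above at 16.2% and wholly below at 13.6%. When the probe sets were split by signal into 3 equal classes, 8.11% were called in the dimmest class and 9.45% in the brightest. The median size of the called changes was 0.61 in the dimmest class and 0.49 in the brightest.

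Correlation of log2 values between arrays was 0.988 to 0.991 within trans-zeatin, 0.981 to 0.990 within DMSO and 0.967 to 0.980 between the groups. The first principal component of the 6 arrays, with 53.8% of the variance, put the trans-zeatin arrays at 13.5 to 17.7 and the DMSO arrays at -21.4 to -11.2. The second, with 18.6%, ran mostly within the DMSO group, where replicates 1, 2 and 3 stood at 15.5, -5.7 and -14.6. The trans-zeatin arrays stood in the same order of replicate number, at 5.43, 2.37 and -3.07. DMSO replicate 1 also had the lowest ratio of 3' to 5' signal for actin, 6.01, against 11.2 to 14.9 on the other 5 arrays, while the ratio for GAPDH was 0.74 to 0.94 throughout. The number of calls, 1179 in all, was 756, 575 and 777 without trans-zeatin replicate 1, 2 or 3, and 742, 666 and 1180 without DMSO replicate 1, 2 or 3. Of the shoot marker list, 3 of 17 genes had an entry in the annotation used here. Their summed signal was 502 to 529 on the trans-zeatin arrays and 499 to 619 on the DMSO arrays, with none at 0. None of the 3 passed the test. Of the root marker list, 2 of 18 genes had an entry, the root hair expansins EXPA7 and EXPA18, and both fell. Their summed signal was 169 to 195 on the trans-zeatin arrays and 223 to 315 on the DMSO arrays. The part of either list in the changes of other genes was not tested. In RNA of whole roots, fewer cells of a type and less RNA per cell cannot be told apart.

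**Figure D1:**
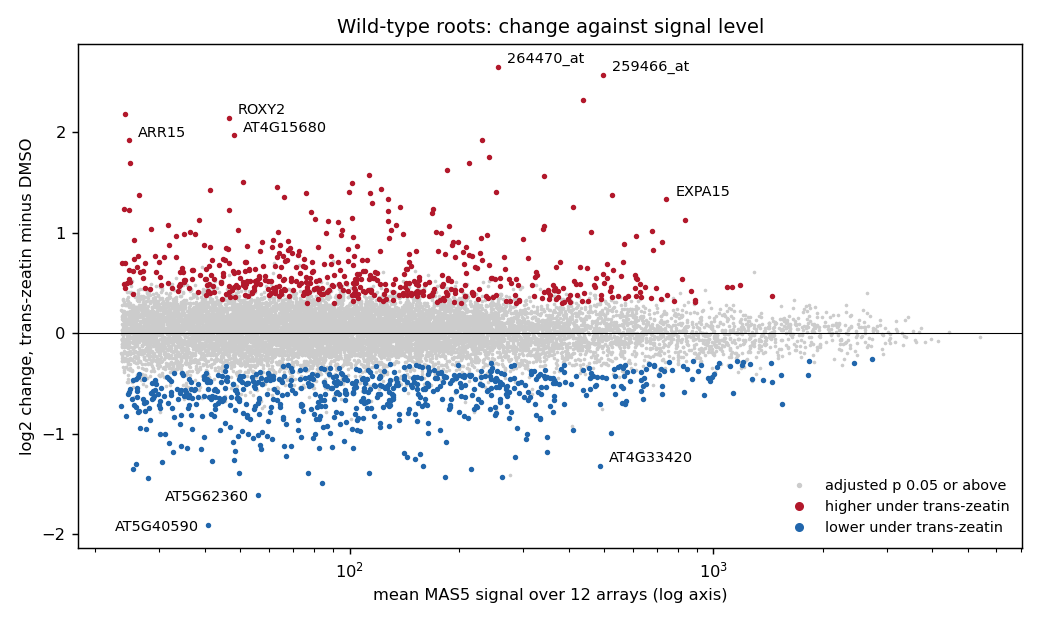
Log2 change in wild-type roots (trans-zeatin minus DMSO, vertical axis) against the mean signal over 12 arrays (horizontal log axis) for the 13647 probe sets tested, with 516 called higher in red and 663 called lower in blue. Called changes are found over most of the signal range (8.11% of the dimmest class and 9.45% of the brightest class of 3), and the largest ones, 2.65 and -1.91, are on the higher and the lower side in 264470_at and AT5G40590.

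Both type-A response regulator genes that could be measured by name rose. These are the feedback inhibitors of the cytokinin relay, and 2 of the 10 genes of the family had an entry in the annotation. ARR15 signal was 71.0, 62.9 and 43.6 on the trans-zeatin arrays, against 12.6, 8.72 and 10.2 on the DMSO arrays. The groups were far apart, the lowest treated array having more than 3 times the signal of the highest DMSO array. The change was 1.92 ± 0.17 (SE, n = 3 each; limma adjusted p = 6.2e-06). ARR16 lay below the filter on dim probe sets and was taken from a fit without it, in which 402 of 22746 probe sets rose (1.77%) and 509 fell (2.24%), together 4.01%. Its signal was 63.8, 71.7 and 61.3 under trans-zeatin, against 11.9, 8.27 and 3.75 under DMSO. The groups did not overlap, and the change was 2.34 ± 0.22 (limma adjusted p = 7.5e-05), with DMSO signals so close to the offset that the size of the change depends on it.

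Of the rest of the pathway little carried a name. The receptors and phosphotransfer proteins, the cytokinin response factors and the enzymes of cytokinin synthesis had no entry in the annotation. All 3 type-B regulators with an entry lay below the filter and did not pass, among them ARR18 at 0.28 ± 0.17 (limma adjusted p = 0.43 without the filter). For the list of cytokinin breakdown and conjugation, 3 of 12 genes had an entry, 2 were tested and 1 rose. This was UGT76C2, which attaches glucose to the ring nitrogen of cytokinins. Its signal was 161, 169.7 and 164 under trans-zeatin, against 125, 102 and 111 under DMSO, and the groups did not overlap. The change of 0.54 ± 0.16 (limma adjusted p = 0.048) was lost in 12 of 18 other settings, including the removal of any single array (adjusted p 0.066 to 0.16). UGT76C1, a related enzyme with the same activity, had a change of -0.31 ± 0.13 (limma adjusted p = 0.15). Of 8 further genes listed as known cytokinin responders, 2 had an entry and both rose, where 3.78% of all probe sets tested rose. They were the acyltransferase gene AT5G47980 (1.26 ± 0.20) and AT1G49450 (1.40 ± 0.21), which encodes a WD40 repeat protein. Both were also among the 25 largest rises. The lists of cytokinin genes were chosen with earlier results of these data known, so these counts are no independent check.

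**Figure D2:**
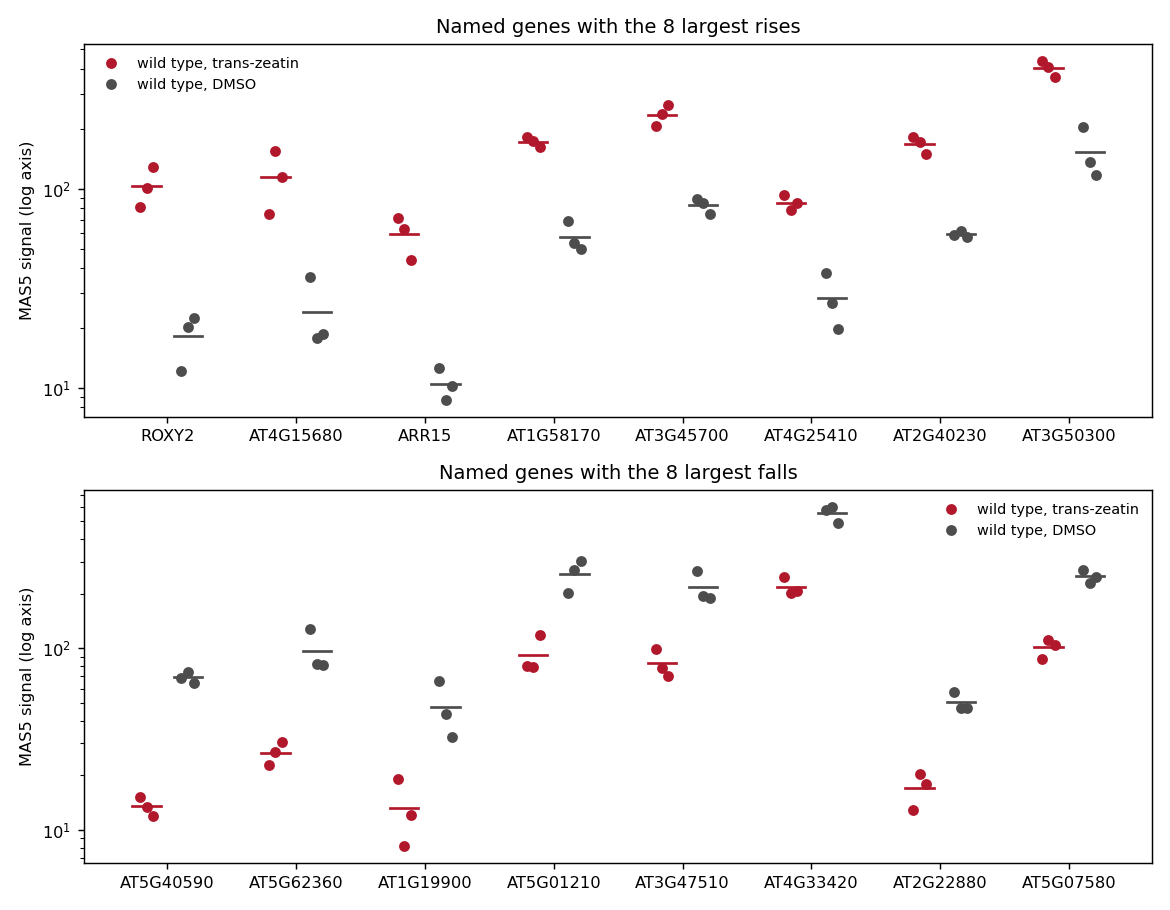
MAS5 signal (log axis) of each of the 3 trans-zeatin arrays (red) and 3 DMSO arrays (grey) for the 8 named genes that rose most and the 8 that fell most among probe sets above the filter, with a line at each group mean. The groups do not overlap in any of the 16 genes, which is part of the rule by which they were named, and the spread is widest in AT4G15680 (74.8 to 154 under trans-zeatin) and AT1G19900 (8.17 to 19.1 under trans-zeatin).

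CC-type glutaredoxins, small plant-specific oxidoreductases, held the gene with the largest rise among named probe sets above the filter, ROXY2. ROXY2 signal was 81.0, 100.2 and 129 under trans-zeatin, against 12.2, 20.2 and 22.3 under DMSO (change 2.15 ± 0.23, limma adjusted p = 2.6e-05). AT4G15680 followed, with 74.8, 154 and 114 under trans-zeatin and 36.1, 17.7 and 18.5 under DMSO (1.97 ± 0.25, limma adjusted p = 1.2e-04). In both genes the arrays of a group spread widely, and the groups still did not overlap. A list of 20 loci of the family was drawn up after values had been seen. Of its 16 loci with an entry, 6 passed the filter, 2 rose and 1 fell, against 8.64% called among all probe sets tested, with a median of -0.11. Below the filter lay 10 members, of which 3 rose, where 1.20% of all probe sets below it were called. These were AT2G30540 (1.71 ± 0.13), AT4G15660 (1.32 ± 0.24) and AT4G15690 (0.92 ± 0.16). AT2G30540 signal was 27.7, 30.3 and 35.1 under trans-zeatin and 4.53, 3.57 and 6.59 under DMSO, so all 3 DMSO values lay under the offset. AT4G15660, AT4G15680 and AT4G15690 lie close together on chromosome 4 and are alike in sequence, and hybridisation of one transcript to the probes of another was not tested. The member that fell was AT3G62960 (-0.74 ± 0.21, limma adjusted p = 0.039). Its call was lost without 5 of the 6 wild-type arrays, with an adjusted p of up to 0.16, reached without trans-zeatin replicate 1. GRX480 had a change of 0.12 (limma adjusted p = 0.80).

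A group of anion transporter genes on chromosome 3 rose. They belong to the NPF2 subfamily of the nitrate and peptide transporters, which move nitrate and chloride across root cell membranes. The list was drawn up after values had been seen. Of its 7 loci, 5 had an entry and 3 passed the filter, and the 3 had a median change of 1.20 and stayed called without any one array. AT3G45700 signal was 205, 237 and 262 under trans-zeatin, against 88.4, 84.6 and 74.8 under DMSO (1.43 ± 0.14, limma adjusted p = 1.7e-05). AT3G45680 signal was 274, 323 and 338 under trans-zeatin, against 136, 127 and 131 under DMSO (1.20 ± 0.10, limma adjusted p = 5.2e-06). AT3G45710 signal was 517, 547 and 599 under trans-zeatin, against 340.3, 389 and 318 under DMSO (0.66 ± 0.14, limma adjusted p = 0.0083). In each of the 3 genes the lowest treated array stood above the highest DMSO array. AT3G45690, of the same stretch of the chromosome, was dim on all 6 arrays, with 1.78 to 7.69 under trans-zeatin and 2.33 to 5.11 under DMSO. Among the 8 members of the wider family tested by symbol, 2 rose and 1 fell, 37.5% in all against 8.64% of all probe sets tested, with a median of 0.06. This wider list was chosen with earlier results of these data known. GTR2, a glucosinolate transporter, rose by 0.32 ± 0.08 and AT1G33440 by 0.51 ± 0.14, and AT1G68570 fell by 0.55 ± 0.12 on the log2 scale. Each of these 3 calls was lost without at least 1 array, with an adjusted p of up to 0.11 for GTR2 (without trans-zeatin replicate 2), 0.11 for AT1G33440 (without trans-zeatin replicate 3) and 0.051 for AT1G68570 (without DMSO replicate 1).

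Acyltransferases of the BAHD family, which attach acyl groups from coenzyme A to plant metabolites, stood on both sides. From a list of 62 loci drawn up after values had been seen, 23 probe sets passed the filter, 4 rose and 2 fell, 26.1% in all against 8.64% of all probe sets tested, with a median of -0.08. AT2G40230 signal was 182, 172 and 149.6 under trans-zeatin, against 58.6, 61.2 and 57.5 under DMSO (1.41 ± 0.12, limma adjusted p = 4.4e-06). AT3G50300 signal was 438, 409.6 and 362 under trans-zeatin, against 204, 135 and 117 under DMSO (1.40 ± 0.17). The 3 DMSO arrays of AT2G40230 were nearly level, and those of AT3G50300 had replicate 1 highest. AT5G47980 had 668, 769 and 800.2 under trans-zeatin, against 345, 364 and 229 under DMSO. AT5G47950, whose locus number is close to that of AT5G47980, had 218, 212 and 226 under trans-zeatin, against 117, 96.4 and 108 under DMSO (0.99 ± 0.10, limma adjusted p = 1.5e-05). The largest fall of the family was that of AT5G01210, with 79.6, 78.4 and 118 under trans-zeatin, against 201, 269 and 304 under DMSO (-1.43 ± 0.18, limma adjusted p = 1.1e-04). AT3G50280, a neighbour of AT3G50300 in locus number, fell by 0.57 ± 0.16 on the log2 scale, a call lost without 4 of the 6 arrays (adjusted p of up to 0.12, without trans-zeatin replicate 3).

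Cell wall genes split into members that rose and members that fell. Expansins loosen the wall of growing cells, and of the 13 expansin genes tested, 3 rose and 3 fell, 46.2% in all against 8.64% of all probe sets tested, with a median of 0.15 (-0.02 to 0.16 without single arrays). The expansin list was chosen with earlier results of these data known. EXPA15 had the largest rise, with 932, 1072 and 1123 under trans-zeatin, against 375, 404 and 448 under DMSO. Every treated array had more than 2 times the signal of every DMSO array (change 1.33 ± 0.09, limma adjusted p = 8.9e-07). EXPB1, a beta-expansin, had 131, 115 and 113 under trans-zeatin and 42.1 to 66.6 under DMSO (1.03 ± 0.16, limma adjusted p = 9.2e-04), and EXPA8 rose by 0.73 ± 0.14. The 3 that fell were EXPA7 (-0.67 ± 0.14), EXPA18 (-0.43 ± 0.13) and the expansin-like EXLB1 (-0.60 ± 0.17). EXPA7 and EXPA18 are the expansins of root hairs. EXPA7 had 75.9, 69.5 and 66.9 under trans-zeatin, against 138, 109 and 105 under DMSO, without overlap. EXPA18 had 119, 101 and 102 under trans-zeatin, against 177, 149 and 118 under DMSO. Here trans-zeatin replicate 1 lay just above DMSO replicate 3, and the call was lost without 5 of the 6 arrays (adjusted p of up to 0.20, without DMSO replicate 1). EXLB1 was lost without 4 arrays (adjusted p of up to 0.19, without DMSO replicate 1).

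Glycosyl hydrolases of family 9, endoglucanases that cut wall glucans, were listed after values had been seen. Of 5 tested, 2 rose and 1 fell, against 8.64% called among all probe sets tested. GH9C2 signal was 709, 892 and 944 under trans-zeatin, against 385, 470.0 and 575 under DMSO (0.83 ± 0.13, limma adjusted p = 7.4e-04), and GH9B8 signal was 297, 337 and 291 under trans-zeatin, against 169, 180.2 and 173 under DMSO (0.80 ± 0.11). GH9C1 fell, with 110.0, 97.9 and 89.0 under trans-zeatin and 137, 162 and 123 under DMSO (-0.47 ± 0.11). The groups of GH9C1 were apart by little, and its call was lost without 3 of the arrays (adjusted p of up to 0.079, without DMSO replicate 2). Among 7 xyloglucan endotransglucosylases, which cut and rejoin xyloglucan, XTH32 rose (0.50 ± 0.12) and EXGT-A3 fell (-0.42 ± 0.12), with a median of -0.04. Both calls were lost without some arrays, with an adjusted p of up to 0.067 for XTH32 and 0.18 for EXGT-A3. AT5G62360, a member of the pectin methylesterase inhibitor family, had the second largest fall of all named genes above the filter. Its signal was 22.8, 26.7 and 30.5 under trans-zeatin, against 127, 82.1 and 80.8 under DMSO (-1.61 ± 0.16, limma adjusted p = 1.5e-05). AT5G11420, a cell wall protein of the DUF642 family, rose by 1.12 ± 0.14.

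Class III peroxidases, secreted haem enzymes that act on the cell wall and on hydrogen peroxide, mostly fell where they were called. From a list of 73 loci drawn up after values had been seen, 41 were tested, 2 rose and 13 fell, 36.6% in all against 8.64% of all probe sets tested. The median was -0.23, and 32 of the 41 had a change below 0. The number that fell was 7, 4 and 4 without trans-zeatin replicate 1, 2 or 3, and 6, 4 and 12 without DMSO replicate 1, 2 or 3, while the number that rose stayed at 2. AT4G33420 fell most, with 246, 202 and 208 under trans-zeatin, against 576, 598 and 492 under DMSO (-1.32 ± 0.18, limma adjusted p = 2.1e-04). The groups were well apart, the highest treated array having 246 and the lowest DMSO array 492. AT5G19890 had 36.1, 27.0 and 32.7 under trans-zeatin and 77.3, 54.9 and 51.7 under DMSO (-0.80 ± 0.17), AT5G64120 had a change of -0.73 ± 0.14 and AT2G41480 one of -0.67 ± 0.13, all called in every setting. In Prx37 the fall of 0.45 ± 0.13 was lost without 4 arrays (adjusted p of up to 0.15, without trans-zeatin replicate 3). Against this direction, AT2G34060 rose, with 40.1, 40.4 and 45.1 under trans-zeatin and 14.8, 14.7 and 22.4 under DMSO (1.03 ± 0.13, limma adjusted p = 1.2e-04).

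Enzymes that conjugate or oxidise small molecules changed in both directions. Of 31 UDP-glycosyltransferases tested by symbol, 4 rose and 6 fell, 32.3% in all against 8.64% of all probe sets tested, with a median of 0.11. This list and that of the glutathione transferases were chosen with earlier results of these data known. UGT71C3 had 57.8, 52.3 and 49.3 under trans-zeatin, against 95.0, 95.1 and 81.7 under DMSO, and UGT88A1 had 89.7, 89.1 and 88.1 under trans-zeatin, against 131, 163 and 153 under DMSO. Both changed by -0.70 ± 0.12, without overlap between groups. UGT76B1, which glucosylates salicylic and isoleucic acid, fell by 0.59 ± 0.12. UGT76D1 rose by 0.61 ± 0.16, lost without 4 arrays (adjusted p of up to 0.099, without trans-zeatin replicate 1), and AT2G22590, a glycosyltransferase gene listed without a UGT symbol, rose by 1.03 ± 0.22. Without single arrays the number of UGT genes that rose was 0 to 3 and the number that fell 4 to 7. Of 13 glutathione transferases, which couple glutathione to reactive compounds, 1 rose and 4 fell, 38.5% in all, with a median of -0.18. GSTU27 had 229.6, 169.6 and 205 under trans-zeatin, against 398, 397 and 303 under DMSO (-0.84 ± 0.13, limma adjusted p = 7.9e-04), and GSTU23 fell by 0.65 ± 0.10. GSTU20 (-0.43 ± 0.13), GSTU22 (-0.36 ± 0.10) and GSTU26 (0.55 ± 0.14) each lost the call without at least 4 arrays, with an adjusted p of up to 0.18, 0.14 and 0.11. The number of glutathione transferases that fell was 2 without any one array other than DMSO replicate 3, without which it was 3.

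Of 9 cytochrome P450 genes above the filter, 1 rose and 3 fell, 44.4% in all against 8.64% of all probe sets tested, with a median of -0.36. Their list, too, was chosen with earlier results of these data known. Below the filter, 1 of 15 rose, where 1.20% of all probe sets below it were called. The riser above the filter was CYP84A4, with 68.7, 61.9 and 76.7 under trans-zeatin and 48.8, 38.1 and 31.5 under DMSO (0.73 ± 0.13, limma adjusted p = 0.0028). Below it, CYP78A9, which promotes growth of floral organs and fruit, had 33.8, 30.4 and 31.6 under trans-zeatin, against 8.09, 7.55 and 7.58 under DMSO. The groups did not overlap, and the DMSO signals lay close to the offset, so no ratio of signals is given (change 1.42 ± 0.14, limma adjusted p = 8.8e-05 without the filter). The falls of CYP71B23 (-0.52), CYP718 (-0.45) and CYP71B29 (-0.41) were each lost without at least 3 arrays, with an adjusted p of up to 0.063, 0.17 and 0.15.

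**Figure D3:**
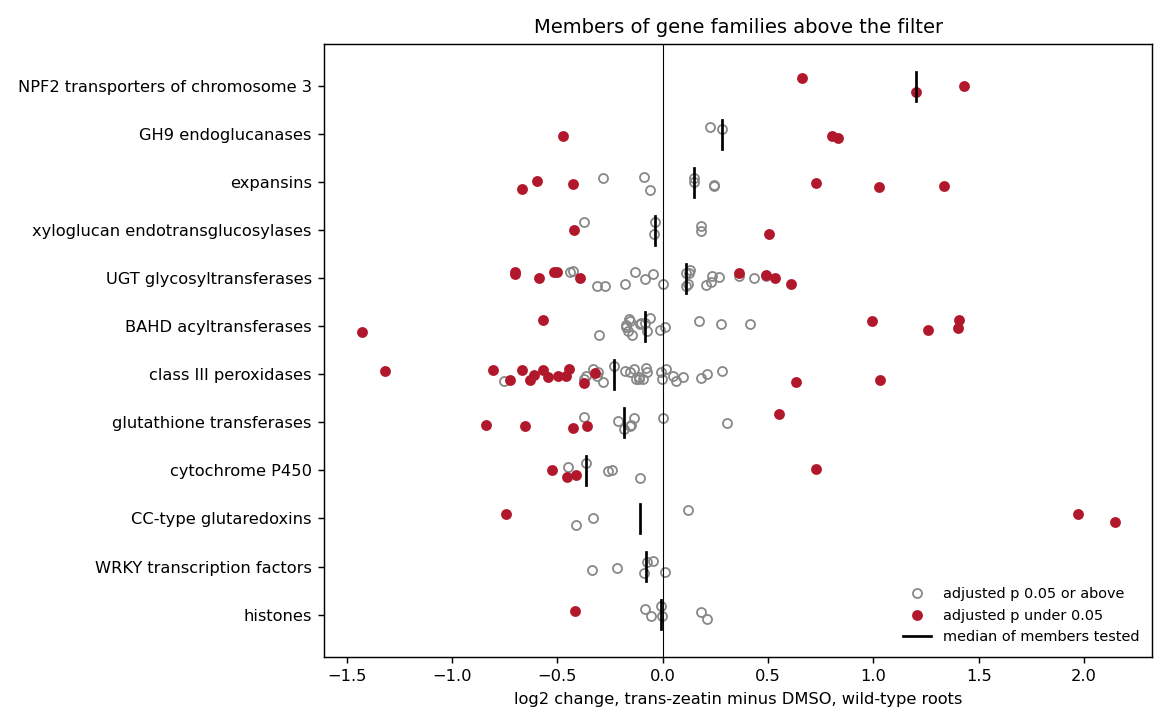
Log2 change in wild-type roots (trans-zeatin minus DMSO) of the members of 12 gene families above the filter, 1 point for each probe set, filled where the adjusted p was under 0.05, with a bar at the median of the members tested. The NPF2 genes of chromosome 3 lie above 0.6, the class III peroxidases have a median of -0.23, and the WRKY genes have no filled point. The NPF2, GH9, BAHD, peroxidase and glutaredoxin lists were drawn up after values had been seen. The other lists were chosen with earlier results of these data known.

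Among genes of auxin conjugation and lateral root formation, GH3.3 was one of the 25 largest falls above the filter. LBD29 was one of the 8 largest falls below it. GH3 enzymes join auxin and other acids to amino acids. GH3.3 had 15.8, 12.8 and 11.4 under trans-zeatin, against 48.0, 39.6 and 29.8 under DMSO (-1.18 ± 0.16, limma adjusted p = 1.8e-04). GH3.17, whose enzyme conjugates auxin to glutamate, went the other way, with 591, 582 and 566 under trans-zeatin and 384, 428 and 340.2 under DMSO (0.59 ± 0.10, limma adjusted p = 0.0021). Neither pair of groups overlapped. WES1, a further GH3 gene, had a change of -0.41 ± 0.13 (limma adjusted p = 0.063), and GH3.9 was dim. LBD16 and LBD29 encode transcription factors that act downstream of auxin in the first divisions of a lateral root. LBD16 had 22.6, 20.1 and 21.6 under trans-zeatin, against 44.6, 49.6 and 48.9 under DMSO (-0.95 ± 0.11, limma adjusted p = 6.5e-05). LBD29 lay below the filter, with 3.95, 3.20 and 7.18 under trans-zeatin and 19.0, 18.4 and 20.8 under DMSO (-1.20 ± 0.16, limma adjusted p = 8.5e-04 without the filter). In both genes the treated arrays lay far below the DMSO arrays, and both calls held without any one array. PUCHI, which acts later in the lateral root primordium, had a change of -0.22 ± 0.12 (limma adjusted p = 0.37, without the filter). Of the Aux/IAA repressors, which are early auxin-responsive genes, IAA18 was tested and had a change of -0.13, while 6 others were below the filter and did not pass, IAA29 at -0.67 ± 0.18 (limma adjusted p = 0.060 without the filter). AT1G43040, an auxin-responsive SAUR gene, fell by 0.91 ± 0.22 in the fit without the filter and was lost without any one array (adjusted p 0.052 to 0.13).

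Transcription factor genes with the largest changes came from several families. AT4G25410, a basic helix-loop-helix gene, had 93.2, 78.0 and 84.3 under trans-zeatin, against 37.9, 26.7 and 19.8 under DMSO (1.43 ± 0.15, limma adjusted p = 2.9e-05). AT1G68360, which encodes a C2H2 zinc finger protein, had 139.8, 102 and 124 under trans-zeatin, against 54.9, 47.4 and 44.0 under DMSO (1.21 ± 0.18). Both rose by more than the spread among the arrays of either group. AT5G07580, of the AP2/ERF family, had 87.1, 111 and 105 under trans-zeatin, against 268, 229 and 248 under DMSO (-1.25 ± 0.12, limma adjusted p = 1.6e-05). MYBC1, a MYB-like gene, had 54.0, 56.3 and 61.5 under trans-zeatin, against 127, 132 and 143 under DMSO (-1.14 ± 0.11), and AT2G43140, a basic helix-loop-helix gene below the filter, fell by 1.25 ± 0.20. Their treated arrays all lay below the DMSO arrays. By symbol, 1 of 5 basic helix-loop-helix genes was called, beside 8.64% of all probe sets tested. This was bHLH34, which rose by 0.52 ± 0.13 and lost the call without 4 arrays (adjusted p of up to 0.095, without DMSO replicate 2). None of 6 WRKY genes passed limma's test, and 0 had an unadjusted p under 0.05, with WRKY53 at -0.33 and WRKY20 at -0.22. Both lists are too short to say more about the families.

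Among the remaining genes that rose most were AT1G58170, AT3G57010, AT4G20320 and AT1G53060. AT1G58170 belongs to the dirigent family, whose proteins steer the coupling of lignan and lignin precursors, and its signal was 182, 172 and 161 under trans-zeatin, against 68.8, 53.1 and 49.7 under DMSO (1.49 ± 0.17). AT3G57010, of the strictosidine synthase-like family, had 791, 1010.0 and 1051 under trans-zeatin, against 479, 332 and 294 under DMSO (1.37 ± 0.23). AT4G20320, a CTP synthase of nucleotide synthesis, had 218, 233 and 251 under trans-zeatin, against 96.2, 106 and 122 under DMSO (1.07 ± 0.12). AT1G53060, a legume lectin family gene, rose by 1.08 ± 0.13. Genes with no role given here that rose were AT4G16000 (1.38), AT3G46880 (1.35), AT4G02850 (1.34), AT4G03610 (1.21), AT2G34610 (1.13) and AT3G44940 (1.12). AT2G34610 was the least even of them under DMSO, with 63.9, 57.4 and 51.3 under trans-zeatin, against 40.9, 21.2 and 12.2 under DMSO. Below the filter, AT5G22390 (1.09), AT1G33670 (0.81) and AT3G14395 (0.79) rose as well. AT1G33670 lost the call without 4 arrays (adjusted p of up to 0.069, without trans-zeatin replicate 2) and with an offset of 1. Its signal was 7.55, 8.05 and 8.59 under trans-zeatin, against 1.47, 3.02 and 0.827 under DMSO, so this rise depends on the offset.

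AT5G40590 had the largest fall of any named gene. It encodes a protein with cysteine- and histidine-rich C1 domains, which bind zinc. Its signal was 15.3, 13.4 and 11.9 under trans-zeatin, against 68.8, 74.5 and 64.3 under DMSO (change -1.91 ± 0.17, limma adjusted p = 8.1e-06). The arrays of each group were close to each other, and the groups were far apart. Also of C1 domain type were AT5G54040, with 41.6, 34.1 and 26.9 under trans-zeatin and 100.2, 76.8 and 69.4 under DMSO (-1.12 ± 0.15), and AT1G61840, below the filter, with 5.54, 2.43 and 3.72 under trans-zeatin and 22.2, 18.1 and 18.4 under DMSO (-1.32 ± 0.18). AT1G19900, a galactose oxidase-like gene, had 19.1, 8.17 and 12.1 under trans-zeatin, against 66.2, 43.6 and 32.5 under DMSO (-1.44 ± 0.21). AT2G22880, which encodes a VQ motif protein, had a change of -1.28 ± 0.20, AT1G78020, an FCS-like zinc finger gene, one of -1.08 ± 0.15, and AT1G11330, an S-locus lectin receptor kinase gene, one of -1.04 ± 0.22. All 3 changes passed the test. AT2G36950, a heavy metal-binding domain gene, had 218, 213 and 226 under trans-zeatin, against 449, 412 and 477 under DMSO, a 2.04-fold difference of the means. Falls of genes with no role given here were those of AT3G47510 (-1.32), AT1G19530 (-1.20), AT1G79160 (-1.14), AT4G04630 (-1.09), AT1G71970 (-1.09), AT2G48090 (-1.05) and AT5G10580 (-0.99), and that of AT4G14020, with a 2.12-fold difference of the means. AT2G36690, a gene of the 2-oxoglutarate-dependent oxygenase family, had 11.3, 17.1 and 24.3 under trans-zeatin, against 27.0, 47.9 and 72.6 under DMSO (-1.15 ± 0.30). Its arrays spread more than 2-fold within each group, with the signal rising from replicate 1 to replicate 3 in both. Its call was lost without 4 of the arrays (adjusted p of up to 0.10, without trans-zeatin replicate 1). AT5G18470, a mannose-binding lectin gene (-1.14), and AT2G39400, an alpha/beta hydrolase gene with a 2.35-fold difference of the means, were also lost without at least 1 array, with an adjusted p of up to 0.057 and 0.058. Below the filter, AT4G31330 (-1.15) kept its call without any one array, while AT1G78450 (-1.13), AT1G23050 (-1.03) and AT4G32780 (-0.85) were lost without some, with an adjusted p of up to 0.14, 0.063 and 0.070.

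Calcium and stress-related genes gave smaller changes. Of the calmodulin-like calcium sensors, listed after values had been seen, 4 were tested and 2 fell, against 8.64% called among all probe sets tested. CML38 had 31.7, 30.2 and 45.7 under trans-zeatin, against 95.7, 63.6 and 59.3 under DMSO (-0.89 ± 0.21). CML42 had 101, 109 and 114 under trans-zeatin, against 220.4, 156 and 132 under DMSO (-0.59 ± 0.16). In both genes DMSO replicate 1 was highest of the DMSO arrays, and without it the adjusted p was 0.092 and 0.13. STZ, a zinc finger repressor induced by many stresses, was the single touch and wound gene with an entry and fell by 0.72 ± 0.21 (limma adjusted p = 0.045), lost without 5 of the arrays (adjusted p of up to 0.19, without trans-zeatin replicate 2). Of 6 RALF peptide genes, also listed after values had been seen, whose products raise the pH of the wall space, 2 fell. RALFL32 had 485, 466 and 479 under trans-zeatin, against 718, 777 and 648 under DMSO (-0.57 ± 0.11, limma adjusted p = 0.0050), and RALFL33 fell by 0.44 ± 0.13, lost without 5 arrays (adjusted p of up to 0.19, without DMSO replicate 1). Of 5 SWEET sugar transporters from another such list, SWEET16 rose by 0.43 ± 0.12 and SWEET2 fell by 0.45 ± 0.12. Both were lost without at least 3 arrays (adjusted p of up to 0.18 and 0.13).

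Photosynthesis genes were represented by 5 listed genes, of which 1 fell, against 8.64% called among all probe sets tested. PORB, which makes chlorophyllide in the light, had 71.1, 61.2 and 78.5 under trans-zeatin, against 91.8, 152 and 189 under DMSO (-0.92 ± 0.23, limma adjusted p = 0.018). DMSO replicate 1 was the lowest of its group here, and the call was lost without 3 arrays (adjusted p of up to 0.092, without trans-zeatin replicate 2). LHCB4.2, a light-harvesting protein gene named among the 25 largest falls, had 56.7, 61.6 and 57.3 under trans-zeatin, against 112, 132 and 136 under DMSO (-1.03 ± 0.14). Its relative LHCB4.1 had a change of -0.16 ± 0.09 (limma adjusted p = 0.31) and RCA, rubisco activase, one of -0.02. Of 3 genes of anthocyanin synthesis 1 was called, beside the same 8.64% of all probe sets tested. DFR, the reductase of dihydroflavonols, fell by 0.76 ± 0.19 (limma adjusted p = 0.018), with 208, 191 and 168 under trans-zeatin and 391, 354 and 242 under DMSO. UF3GT (-0.42) and AT4G14090 (-0.51) did not pass. In all 3 genes DMSO replicate 1 was the highest and replicate 3 the lowest of the DMSO arrays. Without DMSO replicate 1, the adjusted p of DFR was 0.097.

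Further lists had 0 or 1 call each, beside 8.64% called among all probe sets tested, and are too short or too near that share to say more. The cell cycle genes AUR1 (0.14), AUR2 (0.25) and PRL (0.25), which encode mitotic kinases and a replication factor, did not pass limma's test, and 0 of the 3 had an unadjusted p under 0.05. Of 7 histone genes 1 was called, the linker histone HIS1-3 at -0.42 ± 0.12, lost without 5 arrays (adjusted p of up to 0.20, without trans-zeatin replicate 2), which is 14.3% of the list, while HTB1 stood at 0.18 and HTB2 at 0.21. None of 14 genes matched by ribosomal protein symbols passed limma's test, with 4 at an unadjusted p under 0.05, and the largest changes among them belonged to genes of the plastid genome. The pectin methylesterase genes PMEPCRF (-0.20) and ATPMEPCRB (-0.13), the heat shock gene Hsp70-2 (0.14) and the abscisic acid-induced COR15A (-0.33, below the filter) did not pass either. Of 48 gene lists, 14 had no member with an entry in the annotation, among them the auxin carriers and the genes of the Casparian strip, and nothing is reported for them.

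Among probe sets with no gene in the annotation used here were 578 of the calls and 61 of the 112 that changed at least 2-fold. The largest rise of all was that of 264470_at, with 762, 824 and 705 under trans-zeatin, against 163, 99.8 and 94.9 under DMSO (2.65 ± 0.15, limma adjusted p = 1.4e-07). Next came 259466_at, with 876, 861 and 766 under trans-zeatin and 178, 128 and 106 under DMSO (2.57 ± 0.19), and 252374_at, with 956, 824 and 778 under trans-zeatin and 224, 149 and 133 under DMSO (2.32 ± 0.19). In all 3 the lowest treated array had more than 3 times the signal of the highest DMSO array, and DMSO replicate 1 was the highest of its group. The probe sets 264790_at (1.93) and 262704_at (1.75) followed. The largest falls were those of 252340_at (-1.49 ± 0.16), 245885_at (-1.43), 254037_at (-1.39), 265245_at (-1.39) and 246522_at (-1.39 ± 0.27). The last was the least even, with 29.5, 54.8 and 67.0 under trans-zeatin and 104, 127 and 192 under DMSO, rising from replicate 1 to replicate 3 in both groups.

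Genes that lie next to each other in the reference gene table were compared in pairs. Of 2115 neighbouring pairs with both genes tested, 20 (0.946%) had both called, 6 with both higher, 8 with both lower and 6 with opposite directions. Each gene was represented by its probe set with the lowest p-value. Of all single-gene probe sets tested, 8.04% were called, which is a share of single probe sets and cannot be set against a share of pairs. The share of pairs was not tested. The pairs with a member past 2-fold were AT3G45700 with AT3G45710, AT1G19530 with AT1G19540 (-0.78) and AT1G49450 with AT1G49470 (-0.79), the last in opposite directions. GSTU22 and GSTU23 fell together, as did RALFL32 and AT4G14020, and Prx37 and AT4G08780 (-0.55).

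The response of the wild type was set against that of arr10 arr12, which lacks a pair of type-B regulators, to see which of these genes differed. The 25 genes that rose most were chosen for a large change in wild type, so a smaller change elsewhere is partly set by that choice. All 25 had a change above 0 in the mutant, 11 were called there, against 1.24% of all probe sets tested, and 24 had a smaller change than in wild type. All 25 falls had a change below 0 in the mutant, 8 were called there, and all 25 changes were smaller. The test of the difference itself passed at 6 probe sets (0.044%), 1 of them among these 50 genes. This was EXPA15, whose change of 1.33 ± 0.09 in the wild type stood beside one of 0.24 ± 0.09 in the mutant, a difference of 1.10 ± 0.13 (limma adjusted p = 0.0031). EXPA15 signal in the mutant was 824 ± 62.7 under trans-zeatin and 698 ± 28.2 under DMSO (SD, n = 3 each), so the mutant DMSO level lay between both wild-type levels. ROXY2 (1.39 ± 0.23 in the mutant), ARR15 (1.15 ± 0.17) and AT5G40590 (-1.47 ± 0.17) were called in both genotypes. The differences of ROXY2 (0.76 ± 0.32, limma adjusted p = 0.42), ARR15 (0.77 ± 0.24, adjusted p = 0.29) and AT5G40590 (-0.44 ± 0.25, adjusted p = 0.53) did not pass. AT5G47980 changed by nearly the same amount, 1.26 in wild type and 1.21 in the mutant, with a difference of 0.05 ± 0.29. ARR16 changed by 2.34 in wild type and 0.71 ± 0.22 in the mutant, and the difference of 1.63 ± 0.31 did not pass in the fit without the filter (limma adjusted p = 0.21).

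**Figure D4:**
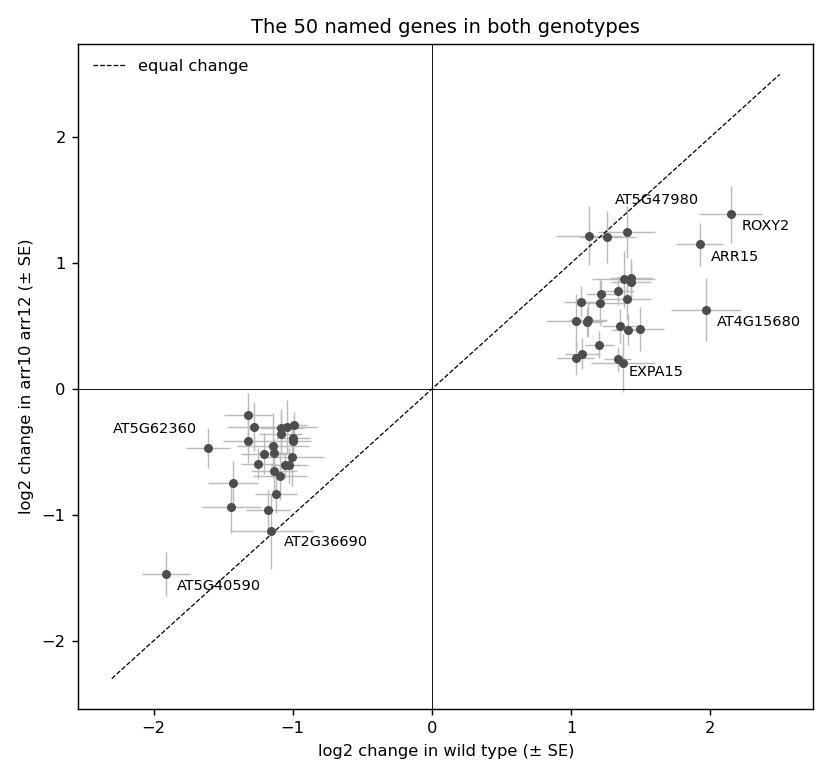
Log2 change (trans-zeatin minus DMSO) of the 25 named genes that rose most and the 25 that fell most in wild type, with the wild type on the horizontal axis and arr10 arr12 on the vertical axis, bars of 1 SE and a dashed line of equal change. All 50 points have the same sign in both genotypes and 49 lie nearer to 0 in arr10 arr12; the genes were chosen for a large change in wild type.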

How the data were processed

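Root RNA was hybridised to 12 Affymetrix ATH1 arrays, 3 in each of 4 groups taken from the array titles and treatment labels. The deposited values are linear signal intensities made with MAS5 and GCOS, per the submitters' processing notes, with versions not given in the sources used here. Their 2%-trimmed mean was 99.3 to 99.4 on every array, so they were used with no further normalization. The 25th percentile of all values, 6.65, was added before log2. Control probe sets were left out, and probe sets with a mean signal over 12 arrays above the 40th percentile (23.5) were tested. A probe set that is high in a single group can pass this filter through that group, as ARR15 and 258739_s_at did through the treated wild type. A linear model with a mean for each group was fitted with limma 3.58.1 in R 4.3.3 with an intensity trend (8 residual degrees of freedom), 2-sided, with Benjamini-Hochberg adjustment over all probe sets tested and a threshold of 0.05. Dimmer probe sets come from the same fit without the filter.

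Of 22746 probe sets, 13513 had 1 gene in the platform annotation, 503 several and 8730 none. Names come from that annotation and the RefSeq gene table of assembly TAIR10.1, which also gave the neighbouring genes. Members and lists were chosen with earlier results of these data known. Named genes were the 25 largest rises and falls with 1 gene and no overlap between groups, the 8 largest rises and falls below the filter, up to 4 members of each list with the largest change together with its called members, and the 5 largest rises and falls with no gene. A planned count of promoter motifs was not run. The number of arrays limits the precision, and the detection limit of the arrays is not known from these values. Alternatives were the offset, filter, normalization, trend, array weights, a replicate block, the arrays in the fit and the removal of single arrays. Over all probe sets tested, same-numbered wild-type arrays did not deviate together, with correlations of 0.0637, -0.0738 and 0.129 between the trans-zeatin and DMSO arrays. Single probe sets can still follow the replicate number. In 252374_at the signal fell from replicate 1 to 3 in all 4 groups, and how many probe sets did so was not counted. The numbers were not taken as pairs on the ground of these correlations, which do not exclude a pairing at single probe sets. A batch shared by all 4 groups was not tested.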

Additional observations from a re-analysis of the deposited data

Results flagged for a closer look

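The change under trans-zeatin differed between wild type and arr10 arr12 by the test of the difference itself (limma, adjusted p under 0.05 over all probe sets tested) at 6 probe sets. Values below are the wild-type change minus the mutant change, on the log2 scale. EXPA15 had a difference of 1.0992 (adjusted p = 0.0031). The probe sets with no gene in the annotation were 264470_at with 1.8021 (adjusted p = 0.0031), 264790_at with 1.2607 (adjusted p = 0.0034), 252858_at with 1.3927 (adjusted p = 0.0034) and 267461_at with -0.8831 (adjusted p = 0.018). The probe set 258739_s_at, which the annotation gives to several genes, had a difference of 1.4553 (adjusted p = 0.018). Its mutant signal was 4.83, 6.43 and 6.19 under trans-zeatin, against 0.685, 0.312 and 1.71 under DMSO, all under the offset. Its wild-type signal was 59.7, 93.4 and 80.9 under trans-zeatin, against 12.9, 11.7 and 10.8 under DMSO. The offset understates the mutant change more than the wild-type change, so a differing response cannot be read from 258739_s_at. In 267461_at the wild-type signal was 1219, 1290.0 and 1460.0 under trans-zeatin, against 1934, 2178 and 2384 under DMSO. The probe sets 252858_at, 258739_s_at and 267461_at were named after their values had been seen. EXPA15, 264470_at, 264790_at and 252858_at kept the call in all 17 other settings. The call of 267461_at was lost in 6 of 17, namely without the filter, without the intensity trend and without trans-zeatin replicate 1 or 2 or DMSO replicate 2 or 3, with an adjusted p of up to 0.10, without trans-zeatin replicate 2. That of 258739_s_at was lost in 5 of 16, namely with an offset of 1, without the filter and without trans-zeatin replicate 2 or 3 or DMSO replicate 2, with an adjusted p of up to 0.52.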

How the results depend on the processing

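The number of calls between trans-zeatin and DMSO, 1179 probe sets above the filter and 109 below it, depended most on array weights and on single arrays. With array weights it was 2203 (1053 higher and 1150 lower), with 205 below the filter, and the test of the difference between genotypes called 27 probe sets in place of 6. Without single wild-type arrays the 3 counts were 575 to 1180, 42 to 83 and 4 to 8. The count above the filter moved by more than 1.5 times without any wild-type array other than DMSO replicate 3. Same-numbered wild-type arrays did not deviate together by correlation over all probe sets tested, so no pairing was assumed, although single probe sets such as 252374_at followed the replicate number. With a replicate block over all 4 groups the counts were nevertheless higher, 1402, 122 and 8. A batch shared by same-numbered arrays of all groups was not tested. Of the 25 largest rises among named genes, all kept their call in every setting, and of the 25 largest falls, 22 did. The change of RCA, which was not called, turned its sign without DMSO replicate 1 (0.10), DMSO replicate 2 (0.03) or trans-zeatin replicate 3 (0.01), with a range of -0.15 to 0.10 over the removals. The cause was not tested. A fit of the difference between genotypes on the wild-type arrays alone could not be made. Signals near the offset limit the folds of dim probe sets.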
